A study of Mus musculus with 6 samples.

Results

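Greb1, E2f6, Rock2, Pqlc3, Pdia6, Nol10 and Hpcal1 are neighbouring protein-coding genes on mouse chromosome 12, spread over 1120 kb from 16670615 to 17791926 (mm10). These 7 genes, of 49585 listed in the deposited tables, were picked because they were jointly higher in Bcat1-knockout cells, so their difference between the groups is given here as a description and is not tested. The study compared 3 libraries of genotype Bcat1-KO with 3 of genotype Control in mGB2, a mouse line labelled as glioblastoma stem cells. Bcat1 encodes the cytosolic aminotransferase that starts the breakdown of leucine, isoleucine and valine. Both groups were untreated and grew attached to a matrix coating in serum-free medium with N2, B27, EGF and FGF, and polyadenylated RNA was sequenced with a stranded kit. The series design calls the control cells NT and the knockout cells BKO. Neither the way the knockout was made nor the number of clones behind each group is stated in the sources used here. It is also not stated whether the replicates are separate cultures, so the spread between them can be technical.

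The 7 genes share a stretch of chromosome but not a pathway. Greb1 is known as an early target and cofactor of the oestrogen receptor, and E2f6 encodes an E2F family member that represses transcription, in part as a subunit of the polycomb complex PRC1.6. Rock2 is a kinase that raises myosin contractility and stabilises actin filaments through the LIM kinases. Pdia6 is a disulfide isomerase of the endoplasmic reticulum, Nol10 is a nucleolar factor of small ribosomal subunit assembly, and Hpcal1 is a calcium sensor of the visinin-like family. Pqlc3 encodes a membrane protein with PQ-loop repeats whose function is little described.

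The stretches just before the start sites are shown for the members with the largest change (Greb1) and the smallest (E2f6), and for Pdia6 and Nol10, which held motifs besides GC boxes. Each is the 250 bases before the RefSeq start (GRCm38.p6, the assembly of mm10), read 5′ to 3′ on the gene's strand, with the motif matches on either strand in capitals. Greb1 and E2f6 held no match and are all in lower case.
Greb1: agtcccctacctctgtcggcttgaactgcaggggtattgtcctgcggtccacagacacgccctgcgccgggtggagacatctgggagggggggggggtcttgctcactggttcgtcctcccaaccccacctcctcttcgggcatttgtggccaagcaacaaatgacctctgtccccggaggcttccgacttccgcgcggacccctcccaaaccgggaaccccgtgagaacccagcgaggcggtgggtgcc
E2f6: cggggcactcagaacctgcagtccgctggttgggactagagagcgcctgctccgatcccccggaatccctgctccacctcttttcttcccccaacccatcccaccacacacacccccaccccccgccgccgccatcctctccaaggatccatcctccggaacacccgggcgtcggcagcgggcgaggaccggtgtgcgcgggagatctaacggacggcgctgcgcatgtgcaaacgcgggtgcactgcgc
Pdia6: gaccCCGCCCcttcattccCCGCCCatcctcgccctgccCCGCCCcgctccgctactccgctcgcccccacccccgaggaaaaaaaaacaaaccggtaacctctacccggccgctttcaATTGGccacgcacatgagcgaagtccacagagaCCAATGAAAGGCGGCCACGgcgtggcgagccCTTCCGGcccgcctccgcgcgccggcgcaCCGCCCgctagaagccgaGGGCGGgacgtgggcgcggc
Nol10: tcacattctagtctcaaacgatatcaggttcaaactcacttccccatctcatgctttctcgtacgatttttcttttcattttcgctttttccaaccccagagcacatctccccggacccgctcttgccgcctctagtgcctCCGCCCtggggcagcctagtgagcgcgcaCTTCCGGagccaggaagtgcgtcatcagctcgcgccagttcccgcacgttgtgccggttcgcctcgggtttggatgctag
They span chr12:16800887-16801136 on the minus strand for Greb1, and chr12:16810715-16810964, chr12:17266339-17266588 and chr12:17348243-17348492 on the plus strand for E2f6, Pdia6 and Nol10. All 7 members matched a RefSeq window, whose start lay 0 to 290 bases from the deposited start, with Pqlc3 the farthest. Greb1 had 2 such windows, and only the one nearest its deposited start was searched. The search covered 11 motifs on both strands: the E-box CACGTG (in 6.02% of all windows), the E2F sites TTTCCCGC (0.895%) and TTTGGCGC (0.417%), the NRF1 site TGCGCATGC (1.28%), the cAMP response element TGACGTCA (1.55%), the TATA box TATAAA (12.4%), the oestrogen response element (0.0639%), and 4 that some members held. The first 7 of these were found in none of the members. The GC box GGGCGG was found in 5 of the 7 members (Rock2, Pqlc3, Pdia6, Nol10 and Hpcal1) and in 32.7% of all 32851 windows of that length. An ETS motif, CCGGAAG, was found in Pdia6 and Nol10 and in 6.91% of all windows. Pdia6 alone among the members held the endoplasmic reticulum stress element, which begins 98 bases before its start and contains a CCAAT box. Of all windows, 0.113% hold that element. The plain CCAAT motif was likewise found in Pdia6 only, and in 33.8% of all windows. None of the 11 motifs was shared by all 7 members, and the windows searched for Greb1 and E2f6 held 0 of them. The members' windows were rich in G and C, from 56% in Nol10 to 83.6% in Rock2, against a median of 52.4% over all windows. All windows were taken without selecting for genes expressed in these cells, whereas all 7 members were expressed, so the 2 sets are not alike.

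The libraries held 29543157 to 37800648 strand-matched gene counts. Bcat1 mRNA was present in all of them, at 155, 176 and 173 CPM (counts scaled to library size, with TMM factors) in the knockout libraries against 214, 223 and 232 CPM in the control. It was lower in the knockout by the edgeR quasi-likelihood test (-0.41 on the log2 scale, SE 0.07, adjusted p = 0.000355), and whole-gene counts say nothing of an edited exon. All 12 glioblastoma stem cell markers checked passed the filter on low counts, with a summed level of 2710 to 2950 CPM in the knockout libraries against 1770 to 1840 CPM in the control. Prom1 passed it through the knockout only, with 29, 32 and 31 reads there and 0 reads in every control library. Of the 12, 9 were higher past the edgeR threshold (adjusted p under 0.05), among them Fabp7, Cd44, Sox2, Olig2 and Prom1. Lower ones numbered 0, and Nes, Msi1 and Egfr did not pass (log2 fold change -0.10, -0.04 and -0.23). Over all genes tested, 32% were higher and 30.3% lower. Of 7 immune cell markers, 1 passed the filter (Cd68, about 3 CPM), and the endothelial list summed to under 1 CPM in every library. The fibroblast list summed to 24.4 to 28.4 CPM in the knockout libraries against 37.6 to 41.6 CPM in the control, almost all of it Col1a1 and Pdgfra. The mature neuron list summed to 394 to 441 CPM in the knockout libraries against 207 to 221 CPM in the control. Most of that was Map2, while Snap25 was near 0 in both groups and Rbfox3 only in the knockout. The part of these marker differences in the results below was not tested.

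All 7 members lay higher in every knockout library than in every control library, which is how they were picked. Over all 14020 genes tested, 32% were past the edgeR threshold and higher in the knockout, and for 35.1% every knockout library lay above every control library. In RNA of whole cultures, a change in which cells were present and a change in RNA per cell cannot be told apart. Together the members took 0.185% to 0.189% of the counts in the knockout libraries and 0.066% to 0.0686% in the control libraries. Of the 7, 5 were higher by at least 1 on the log2 scale, beside 9.76% of all tested genes. The log2 fold changes ran from 0.56 to 2.62 with a median of 1.46, against a median of 0.01 over all genes tested.

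**Figure D1:**
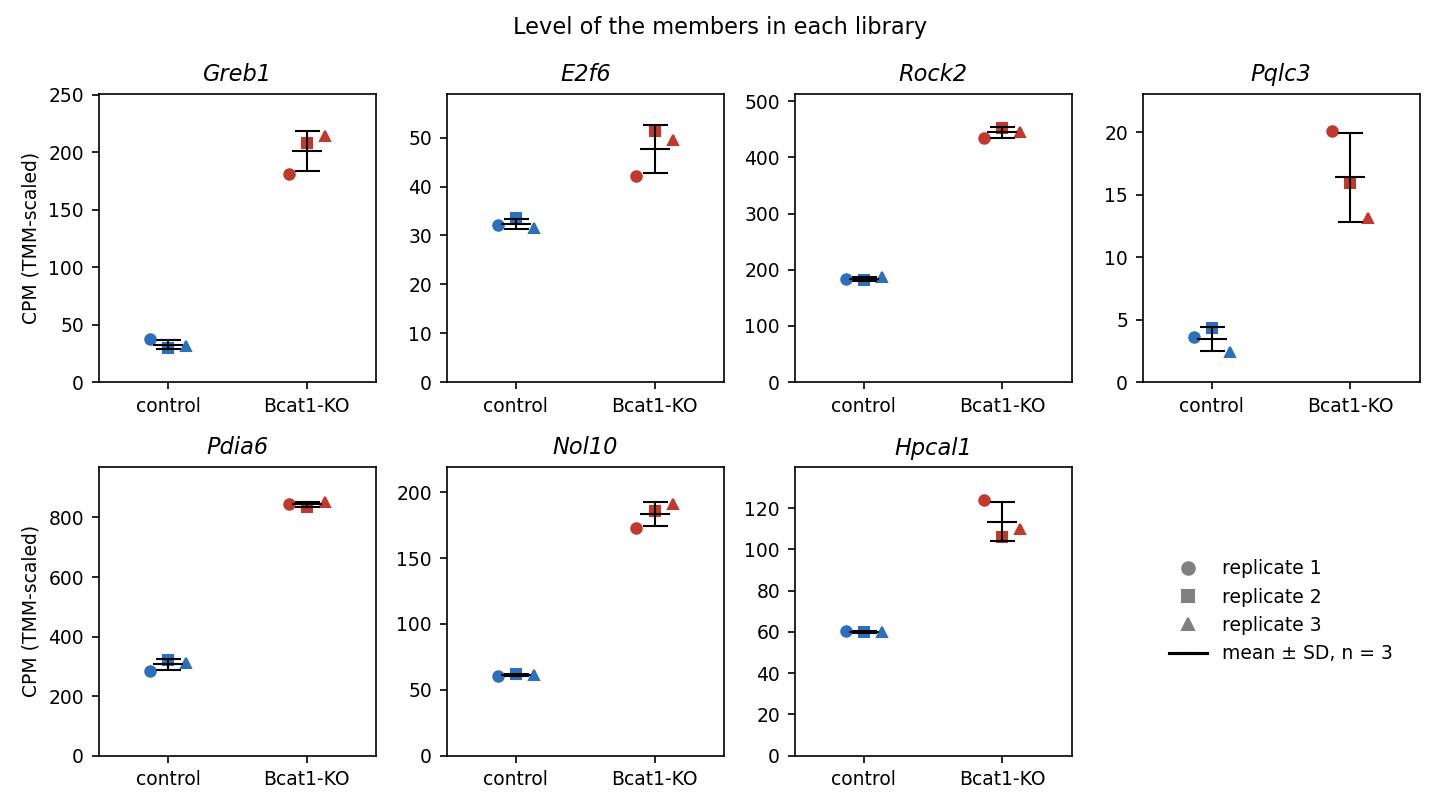
CPM of the 7 members in each library, with a linear axis from 0 in each panel, control in blue and Bcat1-KO in red. Black bars give the mean ± SD of 3 libraries, and in every panel the 3 knockout libraries lie above the 3 control libraries, most widely for Greb1 and least for E2f6.

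Greb1 (ENSMUSG00000036523.16, chromosome 12 from 16670615 to 16800886, minus strand) had the largest change. It was at 181, 208 and 214 CPM in the knockout libraries against 37.1, 29.8 and 31.1 CPM in the control. The knockout libraries averaged 201 ± 17.5 CPM, and those of the control 32.7 ± 3.92 CPM (mean ± SD, n = 3 each), a 6.16-fold difference and a log2 fold change of 2.62 (SE 0.10). Knockout replicate 1 was the lowest of its group and control replicate 1 the highest of its own, and the groups stayed far apart. By log2 fold change Greb1 ranked 518 of 14020 tested genes.

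E2f6 (ENSMUSG00000057469.7, 16810965 to 16826743, plus strand), the repressor without a transactivation domain, changed least. Its values were 42.2, 51.4 and 49.6 CPM in the knockout libraries against 32.1, 33.5 and 31.5 CPM in the control. That is a 1.47-fold difference, a log2 fold change of 0.56 (SE 0.08). The lowest knockout library and the highest control library were 42.2 and 33.5 CPM, so the groups did not overlap. In GENCODE M21 the gene runs on to 16839742, and reads in that further part are not in the deposited count.

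Rock2 (ENSMUSG00000020580.9, 16894978 to 16988274, plus strand), the kinase of myosin contractility, was among the steadiest members. It was measured at 435, 453 and 445 CPM in the knockout libraries against 184, 181 and 188 CPM in the control. Within each group the libraries differed by a few percent, and between the groups the level differed 2.41-fold (log2 fold change 1.27, SE 0.06). Its paralogue Rock1, a closely related kinase, had 58.6 ± 3.91 CPM in the knockout libraries against 55.4 ± 2.76 CPM in the control. That difference did not pass the test (log2 fold change 0.08, SE 0.07, adjusted p = 0.348).

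Pdia6 (ENSMUSG00000020571.12, 17266545 to 17284770, plus strand), the disulfide isomerase with the stress element shown above, was per length the most abundant member. It stood at 846, 835 and 852 CPM in the knockout libraries against 286, 322 and 311 CPM in the control. The means were 844 ± 8.89 and 306 ± 18.5 CPM, a 2.76-fold difference (log2 fold change 1.46, SE 0.07). The knockout libraries lay close together, and none came near the control range.

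Nol10 (ENSMUSG00000061458.8, 17348458 to 17430094, plus strand), the ribosome assembly factor, stood at 173, 186 and 191 CPM in the knockout libraries against 60.6, 62.1 and 61.2 CPM in the control. The control libraries were almost equal, and the knockout level was 2.98-fold higher (log2 fold change 1.58, SE 0.06). Replicate 1 was again the lowest knockout library.

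Hpcal1 (ENSMUSG00000071379.1, 17690814 to 17791926, plus strand), the calcium sensor at the far end, had 124, 106 and 110 CPM in the knockout. Its control libraries held 60.4, 59.8 and 59.8 CPM. Here knockout replicate 1 was the highest of its group, and the difference was 1.89-fold (log2 fold change 0.92, SE 0.07).

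Pqlc3 (ENSMUSG00000045679.13, 16988648 to 17000408, minus strand), the PQ-loop membrane protein, was per length the rarest member and, between libraries, the most variable. It had 20.1, 15.9 and 13.1 CPM in the knockout libraries against 3.59, 4.37 and 2.41 CPM in the control, from 727, 611 and 477 reads against 113, 145 and 70. All knockout libraries were above all control libraries, and the fitted difference was 4.71-fold (log2 fold change 2.23, SE 0.21). The log2 fold change was 1.78 when reads of both strands were counted together.

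Within a group the 7 members did not all deviate in the same direction, although Greb1, E2f6 and Nol10 did so in every knockout library. Knockout replicate 1, as deviation from the mean log2 CPM of its group, was lower for Greb1 (-0.15), E2f6 (-0.17) and Nol10 (-0.08) and higher for Hpcal1 (0.13) and Pqlc3 (0.32). Rock2 and Pdia6 were within 0.03 of their knockout mean in all 3 knockout libraries. The median deviation over the 7 members was between -0.03 and 0.02 in every library.

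Per unit of length the order of the members differed between the groups. On the deposited TPM scale, Pdia6 was highest in the control at 258 ± 13.7, followed by Hpcal1 at 121 ± 1.59, Rock2 at 72.7 ± 1.8, Nol10 at 64.1 ± 0.259, E2f6 at 42.2 ± 1.04, Greb1 at 10.8 ± 1.37 and Pqlc3 at 2.02 ± 0.564. No pair of neighbours in that order overlapped between libraries. In the knockout the order was Pdia6 at 738 ± 12.7, Hpcal1 at 237 ± 15.7, Nol10 at 199 ± 13.1, Rock2 at 182 ± 6.77, Greb1 at 68.8 ± 7.12, E2f6 at 64.6 ± 7.69 and Pqlc3 at 9.9 ± 1.98. Nol10 stood above Rock2 in 3 of 3 knockout libraries (TPM ratio 1.06 to 1.14) and in 0 of 3 control libraries (0.864 to 0.909). Greb1 stood above E2f6 in 3 of 3 knockout libraries (1.03 to 1.09) and in 0 of 3 control libraries (0.224 to 0.291). In the knockout the libraries of both pairs overlapped in level, although the order was the same within each library. These levels use annotated exon lengths, which lower the TPM of a gene whose main transcript is shorter than its annotation. The deposited model of E2f6 ends before that of GENCODE M21, and what this does to its place next to Greb1 was not tested.

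**Figure D2:**
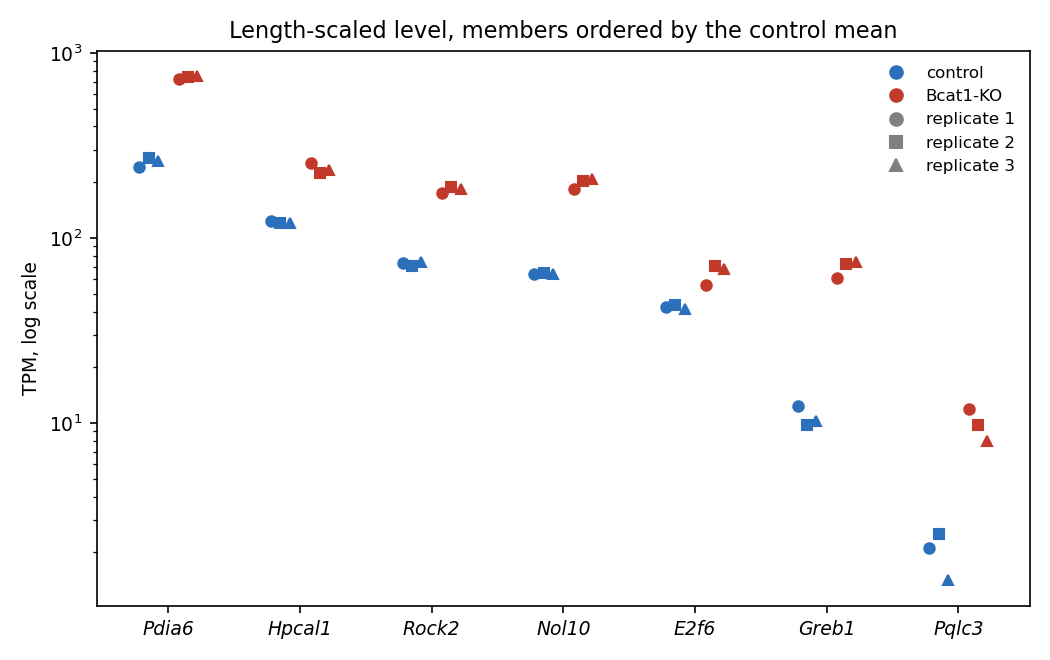
TPM of each member in each library on a log axis, ordered by the control mean, control in blue and Bcat1-KO in red, with symbols for the replicates. The control libraries fall in steps from Pdia6 at 258 to Pqlc3 at 2.02 on average, whereas in the knockout Greb1 reaches the level of E2f6 and Nol10 that of Rock2.

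The genes between the members were read from the same fit, in a stretch that was itself chosen on this contrast. From Ntsr2, next to Greb1, to the end of Hpcal1 the tables list 10 genes that are not members. Of these, 5 passed the filter on low counts, with 3 higher, 1 lower and 1 not past the threshold. Kcnf1, a modulatory potassium channel subunit between Pqlc3 and Pdia6, was at 15.5, 15.4 and 14.2 CPM in the knockout libraries against 2.16, 2.44 and 2.62 CPM in the control (log2 fold change 2.64, SE 0.12). Odc1, the ornithine decarboxylase of polyamine synthesis between Nol10 and Hpcal1, had 735, 894 and 907 CPM in the knockout libraries against 305, 312 and 330 CPM in the control (log2 fold change 1.42, SE 0.09). The third, the small RNA gene Gm22748, lies inside Odc1 on the same strand, so its reads cannot be told apart from those of Odc1. Atp6v1c2, a proton pump subunit gene, was at 0.413 ± 0.0819 CPM in the knockout libraries against 0.610 ± 0.226 CPM in the control, with overlapping libraries (log2 fold change -0.55, SE 0.34). It shares its last 50 bases with the end of Pdia6 on the opposite strand. Of the genes not tested, 2410004P03Rik had 11, 15 and 8 knockout reads against 1, 2 and 1 in the control. The others not tested had at most 2 reads in any library.

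On the Greb1 side the direction turned at the next gene. Ntsr2, a neurotensin receptor gene whose end lies 10378 bases from Greb1, had 16.3, 23.6 and 18.7 CPM in the knockout libraries against 122, 108 and 105 CPM in the control (log2 fold change -2.52, SE 0.12), so every knockout library was below every control library. Lpin1, which encodes a phosphatidate phosphatase, is the next gene outward and was also lower, with 585 ± 60.2 CPM in the knockout libraries against 787 ± 40.2 CPM in the control (log2 fold change -0.43, SE 0.09, adjusted p = 0.00116, edgeR). On the other side no tested gene followed Hpcal1 for 3319821 bases. The next was Asap2, an Arf GTPase-activating protein gene, at 56.8 ± 3.97 CPM in the knockout libraries against 40 ± 1.7 CPM in the control (log2 fold change 0.51, SE 0.07, adjusted p = 8.6e-05, edgeR).

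Of the 40 tested genes flanking the stretch, 20 on each side, 17 were higher and 10 lower, and 13 were not past the edgeR threshold. These shares, 42.5% and 25%, stand beside 32% higher and 30.3% lower over all genes tested, and the flanking median was 0.20. The flanking genes past the threshold and higher by at least 1 on the log2 scale were Fam49a (4.07), Fam84a (3.13), Rsad2 (2.55) and Rnf144a (1.23). Those lower by at least 1 were Cys1 (-2.40), Nbas (-1.90), 4930519A11Rik (-1.80) and Gm4294 (-1.07). All 8 were named after their values were seen. Fam49a passed the filter on low counts through the knockout only, with 8, 7 and 4 reads in the control libraries. Cys1, 4930519A11Rik and Gm4294 passed it only with the help of control libraries, where they were higher. On the Greb1 side the flanking genes did not share a direction. Beyond Lpin1 came Trib2, a pseudokinase gene (log2 fold change 0.23), Fam84a (3.13), and then Nbas (-1.90) and Ddx1 (-0.99), also named after the fact. Across chromosome 12 as a whole, 146 of 477 tested genes were higher (30.6%) and 194 lower (40.7%), and the median change was -0.11 on the log2 scale.

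**Figure D3:**
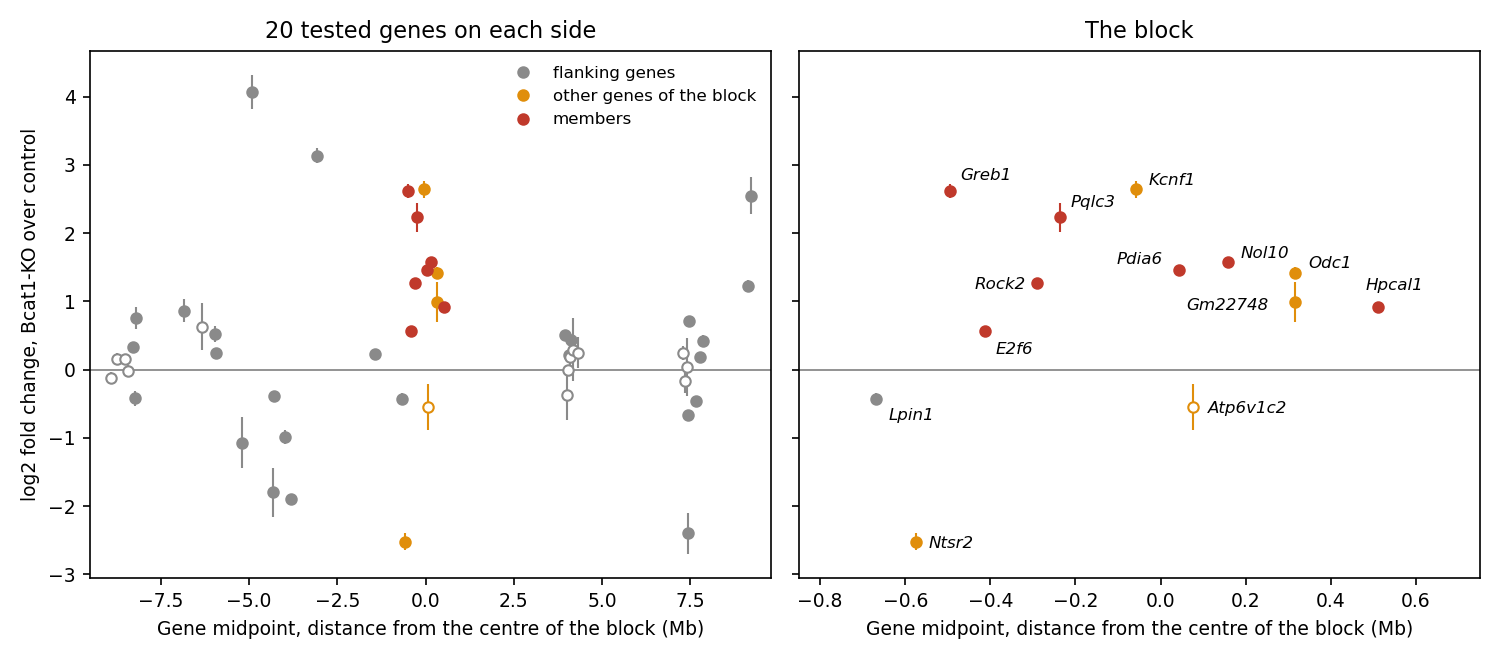
Log2 fold change of Bcat1-KO over control against the distance of each gene's midpoint from the centre of the stretch, with the 20 tested genes on each side (left) and the stretch itself (right). Bars are standard errors and open circles did not pass the edgeR threshold, and members lie between 0.56 and 2.62 while Ntsr2, next to Greb1, lies at -2.52.

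Reads on the opposite strand were not used to pick the members, and they did not follow the sense reads at Greb1. Over Greb1 the opposite strand held 5, 11 and 9 reads in the knockout libraries against 62, 38 and 49 in the control, while the sense reads were higher in the knockout. The groups did not overlap: opposite-strand reads were 0.0764% to 0.137% of all Greb1 reads in the knockout libraries and 3.7% to 5.15% in the control libraries. The strand that was lower in the knockout is that of Ntsr2, which was lower too, and whether reads past the end of Ntsr2 contribute was not tested. GENCODE M21 has an antisense transcript there, Gm48140 (16672240 to 16685013, plus strand), which the deposited tables do not list.

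Over Pqlc3 the opposite strand held 111, 127 and 110 reads in the knockout libraries against 81, 68 and 61 in the control. Relative to library size that is 3.12, 3.36 and 3.02 CPM (here without TMM scaling) against 2.56, 2.03 and 2.06. The opposite strand therefore carried 13.2% to 18.7% of the Pqlc3 reads in the knockout libraries and 31.9% to 46.6% in the control libraries. Rock2 lies on that strand and ends 373 bases before the end of Pqlc3. For Rock2, Pdia6 and Nol10 the opposite strand held 118, 57 and 38 reads over the 3 knockout libraries and 27, 13 and 10 over the control libraries, with no overlap between groups relative to library size. Such a lack of overlap was found, with the knockout above, for 17% of the 7397 tested genes with over 10 opposite-strand reads, and with the knockout below, as for Greb1, for 13%. As a share of each gene's own reads the groups overlapped, at 0.239% in the knockout and 0.156% in the control for Rock2, 0.0608% and 0.0453% for Pdia6, and 0.187% and 0.174% for Nol10, against 3.61% and 3.6% over all genes in the knockout and the control. E2f6 and Hpcal1 had fewer than 10 such reads in each group. None of these opposite-strand values was tested.

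**Figure D4:**
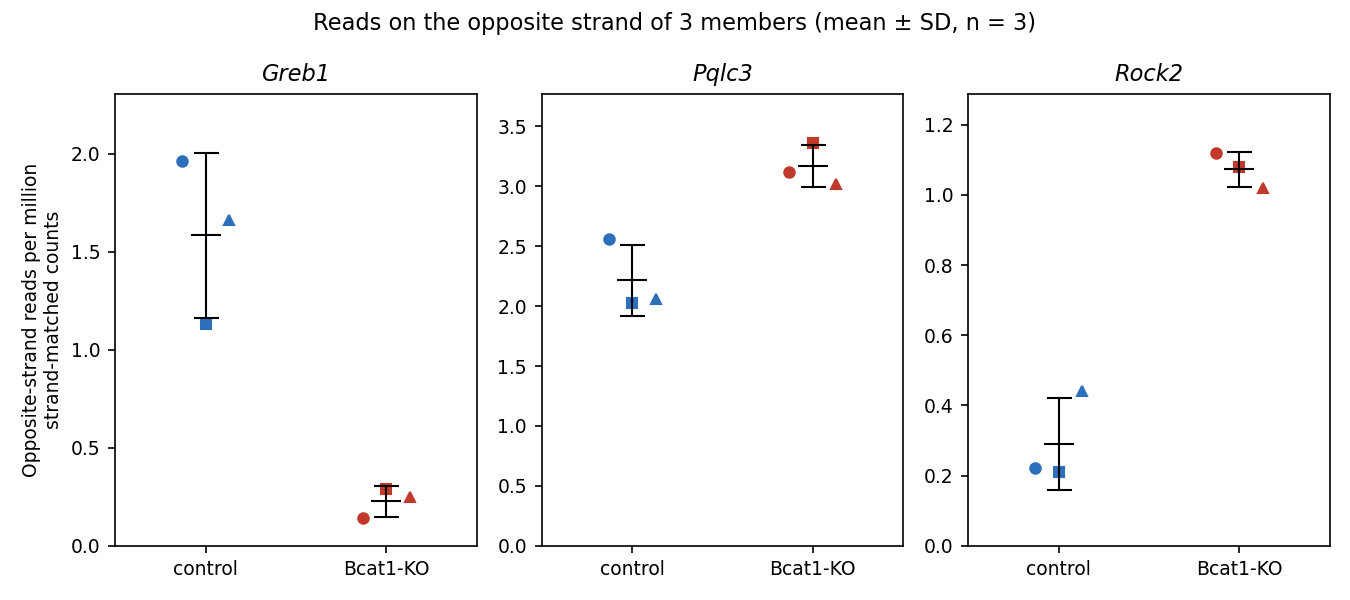
Reads on the strand opposite to Greb1, Pqlc3 and Rock2, in CPM of the strand-matched library total, with a linear axis from 0, circles, squares and triangles for replicates 1, 2 and 3, and black bars for the mean ± SD of 3 libraries. Greb1 is lower in the knockout, at 0.226 against 1.58 on average, whereas Pqlc3 and Rock2 are higher.

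The partners of 6 members elsewhere in the genome were counted from lists, without a test of the list. For Pdia6 the list held 37 tested disulfide isomerases and folding factors of the endoplasmic reticulum. Of these, 18 were lower (48.6%), 8 higher (21.6%) and 11 not past the threshold, beside 30.3% and 32% over all genes, and the median log2 fold change was -0.21. The chaperone genes Hsp90b1 and Calr fell from 1260 ± 46.3 to 628 ± 38.6 CPM and from 801 ± 38.4 to 411 ± 7.69 CPM. Xbp1, a transcription factor of the unfolded protein response, fell from 112 ± 4.34 to 49.5 ± 1.22 CPM, or -1.19 on the log2 scale (SE 0.06, adjusted p = 1.34e-08). The thioredoxin-like membrane protein genes Tmx2 and Tmx4 rose, the one from 83.1 ± 1.83 to 147 ± 8.44 CPM, the other from 46.5 ± 0.924 to 66 ± 7.76 CPM. Dnajb9, a co-chaperone of Hspa5, rose from 5.91 ± 0.274 to 8.01 ± 0.968 CPM, which did not pass without control replicate 3 (adjusted p = 0.0538). The highest log2 fold change in the list was 0.82, below the 1.46 of Pdia6.

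For Nol10 the list held 55 tested factors of the small-subunit processome and early ribosome assembly. Of these, 10 were higher (18.2%), 17 lower (30.9%) and 28 not past the threshold, beside 32% and 30.3% over all genes tested. In the list the log2 fold changes lay between -0.80 and 0.47, with a median of -0.08, and that of Nol10 was 1.58. Utp20 fell from 132 ± 14 to 75.8 ± 17 CPM, and Nol6 and the helicase gene Ddx49 from 213 ± 7.56 to 133 ± 23.5 CPM and from 87.2 ± 4.18 to 54.4 ± 5.07 CPM. Rcl1 rose from 31.3 ± 2.55 to 43.3 ± 0.901 CPM, Utp23 from 15.8 ± 0.939 to 21.2 ± 1.38 CPM and Bysl from 61 ± 4.88 to 80.4 ± 6.42 CPM. Without control replicate 1, the number of higher genes was 5.

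For E2f6 the list held 25 tested genes of the E2F factors, their DP partners and polycomb complexes. Of these, 8 were higher (32%), 7 lower (28%) and 10 not past the threshold, beside 32% and 30.3% over all genes tested. The median log2 fold change of the list was 0.08. Rybp and Yaf2, related polycomb subunits that occupy the same place in PRC1, went opposite ways. Rybp fell from 86.4 ± 2.84 to 38.8 ± 2.96 CPM, which is -1.16 on the log2 scale (SE 0.07, adjusted p = 6.25e-08), and Yaf2 rose from 29.5 ± 0.458 to 55.6 ± 5.48 CPM (0.91, SE 0.08, adjusted p = 1.28e-06). The PRC1.6 scaffold gene Mga fell from 176 ± 6.56 to 112 ± 10.5 CPM and the ubiquitin ligase gene Ring1 from 33 ± 4.38 to 22.5 ± 1.2 CPM. The DP partner Tfdp2 rose from 41.6 ± 2.23 to 69.6 ± 7.6 CPM.

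Among the E2F paralogues, E2f8 and E2f2 were higher in the knockout (log2 fold change 0.70 and 0.60) and E2f1, E2f4 and E2f7 lower (-0.47, -0.40 and -0.30), all past the edgeR threshold. E2f3 and E2f5 did not pass it (-0.09 and -0.19). Without knockout replicate 1 E2f5 passed (adjusted p = 0.0058), and E2f7 did not pass without knockout replicate 2 (adjusted p = 0.0574) or control replicate 2 (adjusted p = 0.0655). Of 16 germline genes known to be repressed with E2F6 or PRC1.6, 12 did not pass the filter on low counts. The other 4 split, with 3 lower (75%) and 1 higher (25%), beside 30.3% and 32% over all genes tested. Stag3, a meiotic cohesin subunit gene, was lower at 20.3 ± 2.57 against 39.9 ± 2.92 CPM. At low levels, Taf7l (0.286 against 1.91 CPM) and Syce2 (0.154 against 0.43 CPM) were also lower, and Ddx4 was higher at 1.08 against 0.505 CPM. Taf7l had 4, 16 and 12 reads in the knockout libraries against 59, 67 and 53 in the control. Syce2 had 3, 5 and 9 against 14, 12 and 14. Both passed the filter on low counts only with the help of the control libraries, where they were higher. The split of the 4 germline genes is therefore only a description. With DESeq2, and with both strands counted, 2 germline genes were lower.

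For Greb1 the list held 12 tested genes of steroid receptors and oestrogen response, with a median log2 fold change of -0.16. Of these, 5 were higher (41.7%), 5 lower (41.7%) and 2 not past the threshold, beside 32% and 30.3% over all genes tested. The oestrogen receptor gene Esr1 was at 0.206 CPM in the knockout libraries against 0.353 CPM in the control (adjusted p = 0.107), and Esr2 and the progesterone receptor gene Pgr did not pass the filter on low counts. Gata3 rose from 1.59 ± 0.244 to 6.14 ± 0.425 CPM, Myb from 3.39 ± 0.613 to 7.14 ± 0.392 CPM and the receptor cofactor gene Nrip1 from 27 ± 2.67 to 52.2 ± 2.11 CPM. Besides Xbp1, which belongs to this list too, the pioneer factor gene Foxa1 fell from 10.6 ± 0.275 to 4.36 ± 0.372 CPM and the coactivator gene Ncoa3 from 68.1 ± 5.27 to 40.5 ± 1.68 CPM. The paralogue Greb1l was higher at a low level, 0.972 ± 0.0659 CPM against 0.309 ± 0.0378 CPM (log2 fold change 1.64, SE 0.27, adjusted p = 0.000231). With 11, 10 and 8 control reads, Greb1l passed the filter only with the help of the knockout libraries.

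The relatives of Hpcal1 gave few values in these cells. Hpca, Hpcal4 and Vsnl1 did not pass the filter on low counts, each with a mean under 0.2 CPM in both groups. Ncald, the remaining close relative, fell from 35.7 ± 2.36 to 9.46 ± 2.84 CPM, or -1.92 on the log2 scale (SE 0.16, adjusted p = 9.22e-07). Of the 5 tested neuronal calcium sensor genes, Kcnip3 was the only other past the threshold, rising from 29.6 ± 1.15 to 57.3 ± 6.29 CPM. Among the 5 tested relatives of Pqlc3, Mpdu1 and Pqlc1 were higher (log2 fold change 0.45 and 0.42), the sugar transporter gene Slc50a1 lower (-0.60), and Pqlc2 and Ctns, lysosomal amino acid exporters, did not pass. Without control replicate 1 Pqlc1 did not pass (adjusted p = 0.0647). Of the tested calcium sensors 20% were higher and 20% lower, and of the tested Pqlc3 relatives 40% and 20%. These shares stand beside 32% higher and 30.3% lower over all genes tested.

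**Figure D5:**
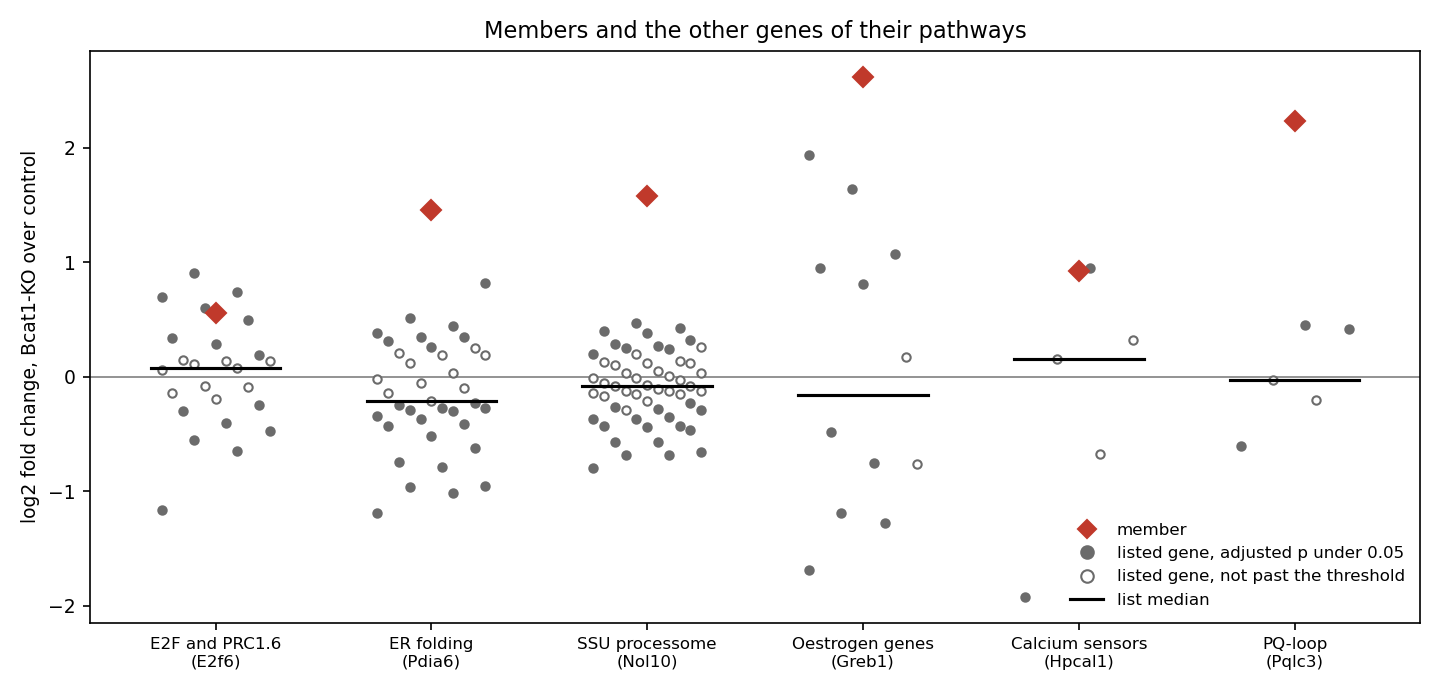
Log2 fold change of Bcat1-KO over control for the tested genes of 6 lists (grey, open where not past the edgeR threshold) with the list median as a line and the member each list belongs to as a red diamond. Pdia6, Nol10, Greb1 and Pqlc3 lie above the listed genes shown, whereas E2f6 and Hpcal1 lie within theirs.

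The genes whose profile over the 6 libraries was most like the mean profile of the members, by Euclidean distance of centred log2 CPM, lay elsewhere in the genome. Among 10105 genes considered, the nearest were the membrane-type protease gene Mmp16 (distance 0.111), the phosphoglucomutase gene Pgm2 (0.116), Dmxl2 (0.126), the kinase gene Cdc42bpg (0.140) and D3Ertd751e (0.141). Their log2 fold changes were 1.47 to 1.55. Nol10 and Pdia6 lay at 0.160 and 0.176 from that mean, Rock2 at 0.338, Hpcal1 at 0.769, Pqlc3 at 1.109, E2f6 at 1.205 and Greb1 at 1.386. Outside the stretch, 6 genes were at least as near as Nol10 and 1786 at least as near as Greb1. The members behind that mean were picked on this contrast, and the distance largely follows the size of the fold change. Greb1 and E2f6, the farthest members, had the largest and smallest log2 fold change (2.62 and 0.56). The distances are therefore only a description.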

How the data were processed

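Poly(A) RNA was sequenced from 3 Bcat1-KO and 3 control samples of mGB2, with 1 table a sample. Alignment used STAR 2.5.3a and mm10, and featureCounts did the counting, per the submitters' processing notes. No source used here names the annotation release. The deposited counts are raw reads per gene, for both strands together and for each strand, per the file headers, and the strand-matched counts were used. The deposited TPM values, scaled to the same sum in every library, give levels per length. The authors also deposited a TPM-like score, scaled with a denominator that leaves out some genes, judging by its sums and per the file headers, and it was not used.

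The 7 members and the lists were chosen with earlier results of these data known. The gene list fixed for Rock2 is not reported here. edgeR 4.0.16 kept 14020 genes (filter on low counts, 0.0511% of counts removed), scaled by TMM, and compared the groups with its quasi-likelihood test, with Benjamini-Hochberg adjustment over all 14020 at 0.05. Standard errors are the log2 fold change divided by the root of its F. Gene types came from GENCODE M21 by stable ID (99.5% found). On simulated counts (13808 genes), recovery was 32% at a 1.25-fold change, 64.6% at 1.5-fold, 82% at 2-fold and 100% at 4-fold, with 8.72% false calls. Depth sets the lowest level that can be read in a library: 3 counts are 0.0794 to 0.102 CPM. Replicates differed beyond counting noise (chi-square per gene 3.78 to 30.5), so each was counted once. Named genes were the members, Bcat1, the other tested genes of the stretch, the nearest flanking genes, paralogues, up to 3 genes a direction per list (mean log2 CPM 0 or more), and the 5 nearest profiles. Alternatives were RLE and upper-quartile scaling, no filter, DESeq2 1.42.0, limma 3.58.1 (limma-trend on log2(TPM + 1)), both strands, a test against a 1.5-fold change, a replicate block, and leaving out each library. Scaling by library size only was added after seeing the data. Analyses used R 4.3.3 and Python 3.11.15.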

Additional observations from a re-analysis of the deposited data

Results flagged for a closer look

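Reads on the opposite strand were above the control level at 2 genes of the stretch that are not members. Over Atp6v1c2 they numbered 103 in the 3 knockout libraries and 25 in the control libraries, and over Odc1 40 and 12. As a share of all reads over the gene these were 69.1% and 30.5% at Atp6v1c2, with no overlap between libraries, but 0.0426% and 0.0406% at Odc1, where the libraries overlapped. Both were flagged because every knockout library was above every control library relative to library size, with over 10 such reads. The same held for 17% of the 7397 tested genes with over 10 opposite-strand reads. Ntsr2, also not a member, went the other way, with 7 opposite-strand reads in the knockout libraries and 36 in the control libraries. There every knockout library was below every control library, as for 13% of those genes. The strand read at Atp6v1c2 is that of Pdia6, whose end it overlaps by 50 bases.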

How the results depend on the processing

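The members were picked on this contrast, so their direction under other settings is a description: all 7 were higher in all 15, and E2f6 did not pass the test against a 1.5-fold change. None of the 65 genes named by the rule above reversed in any setting. Genes named outside that rule, such as Ddx4 and Syce2, were not followed one by one. Over the settings the log2 fold change of Greb1 ran from 2.55 to 2.71, E2f6 0.49 to 0.62, Rock2 1.25 to 1.31, Pqlc3 1.78 to 2.43, Pdia6 1.40 to 1.51, Nol10 1.53 to 1.61 and Hpcal1 0.83 to 0.96. Against a 1.5-fold change 1564 genes were higher and 1481 lower, and 4 and 4 flanking genes. In that stricter test the counts higher and lower were 1 and 1 for E2F and polycomb, 1 and 5 for endoplasmic reticulum folding, 0 and 0 for the processome, 0 and 0 for the PQ-loop genes, and 0 germline genes were higher. The calcium sensors had 1 higher and 1 lower gene. Higher ones became 3 with no filter on low counts, and 2 with limma-trend, with both strands counted, with the replicate block and with scaling by library size only. Lower ones became 2 with no filter, with DESeq2 and with both strands counted. Leaving out each library gave 3 to 4 higher and 1 to 2 lower genes of the stretch that are not members (Atp6v1c2 passed without control replicate 1). With no filter on low counts 4 such genes were higher. Leaving out each library also gave 5 to 15 higher processome genes, 1 to 2 higher calcium sensors and 1 to 2 higher PQ-loop genes. The cause of these shifts was not tested. Gm22748 did not pass with DESeq2 (adjusted p = 0.0793). Whether same-numbered libraries belong together is not stated. Their deviations had correlations of -0.051, -0.073 and 0.156, and 1 of 3 control libraries was closest to its own number. With 3 libraries a group these values cannot settle it. With the replicate block 4448 genes were higher and 4214 lower, against 4480 and 4255 without it. Pqlc3, with 70 to 145 reads in the control libraries, is the member with the fewest reads.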
